A study of Mus musculus with 30 samples.

Results

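The transcripts described here are those of 10 genes that load, complete or accompany the replicative DNA helicase: the helicase subunits Mcm2, Mcm3, Mcm4, Mcm5, Mcm6 and Mcm7, the loading factor Cdc6, the later factors Mcm10 and Gins2, and the sliding clamp Pcna. They were chosen by name from the 55471 genes of the count table, and all 10 passed the filter on low counts, so every one of them was tested. The tumours were grown under the skin of female C57BL/6 mice aged 6 to 8 weeks from MC38 cells, a mouse colon carcinoma line, and about 50 mg of each tumour was used for RNA. Cells with loss-of-function mutations in B2m (B2mKO), cells with such mutations in Jak1 (Jak1KO) and unmutated cells (WT) were compared. B2m encodes the light chain of MHC class I, which cells need to show antigens to CD8 T cells, and Jak1 encodes a kinase that carries interferon signals. Mice with tumours of each genotype were given aPD1, an antibody that blocks the T cell inhibitory receptor PD-1, or an IgG1 control antibody (100 µg into a vein on days 7, 10 and 13), and tumours were taken on day 14. This gave 6 groups of 5 libraries: B2mKO with aPD1, B2mKO with IgG1, Jak1KO with aPD1, Jak1KO with IgG1, WT with aPD1 and WT with IgG1. The mutations were in the inoculated cells, so the mice's own cells inside a tumour keep both genes, and whether each mutant line is a single clone is not given in the sources used here. The labels do not say that each library came from its own mouse, so the p-values speak only of the spread among these samples, and that spread may be technical.

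The proteins Mcm2 to Mcm7 form a ring of 6 different subunits that is the motor of the replicative helicase. In G1 phase the origin recognition complex, Cdc6 and Cdt1 load this ring onto DNA in an inactive form, a step called licensing. At the start of S phase Cdc45 and the GINS complex join the ring, Mcm10 helps to activate it, and Pcna then holds the DNA polymerases on the template. Most of these genes are classic targets of E2F transcription factors and are transcribed from late G1 into S phase, so in tissue their transcripts are widely read as a mark of dividing cells.

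In GRCm38 coordinates, the ring subunit genes are Mcm2 (ENSMUSG00000002870, chr6:88883474-88898780, minus strand), Mcm3 (ENSMUSG00000041859, chr1:20802968-20820312, minus strand), Mcm4 (ENSMUSG00000022673, chr16:15623897-15637400, minus strand), Mcm5 (ENSMUSG00000005410, chr8:75109569-75128439, plus strand), Mcm6 (ENSMUSG00000026355, chr1:128331590-128359664, minus strand) and Mcm7 (ENSMUSG00000029730, chr5:138164583-138172422, minus strand). The loading factor gene is Cdc6 (ENSMUSG00000017499, chr11:98907801-98923940, plus strand). The later factors are Mcm10 (ENSMUSG00000026669, chr2:4989714-5012791, minus strand) and Gins2 (ENSMUSG00000031821, chr8:120578633-120589304, minus strand), and the clamp is Pcna (ENSMUSG00000027342, chr2:132249162-132253314, minus strand). Each value is the number of reads over all annotated exons of a gene, untranslated ones included. The median count per library was lowest for Gins2, at 429.5, and highest for Mcm6, at 6072.

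Promoters are shown for the members whose window holds an E2F-type match, since these letters are what the members with a match share in sequence. RefSeq promoter windows of 300 bases (250 before the start site and 50 after it, GRCm38.p6) were matched by symbol for 8 of the 10 members, with 9 windows because Mcm7 has 2; no window was matched for Mcm4 and Gins2. The letters searched were TTTCCCGC, TTTCGCGC, TTTGCCGC and TTTGGCGC, each 8 bases long and read on both strands, with overlapping matches joined. The windows below run 5′ to 3′ along the gene's own strand, and capitals mark the matches. They are Mcm3 (chr1:20820263-20820562, minus strand), Mcm5 (chr8:75109259-75109558, plus strand), Mcm6 (chr1:128359656-128359955, minus strand), the first Mcm7 window (chr5:138171834-138172133, minus strand) and Cdc6 (chr11:98907901-98908200, plus strand). The Cdc6 window and this Mcm7 window lie wholly inside the gene bounds given above. Their RefSeq start sites are therefore downstream of the outermost annotated start of these genes.
Mcm3: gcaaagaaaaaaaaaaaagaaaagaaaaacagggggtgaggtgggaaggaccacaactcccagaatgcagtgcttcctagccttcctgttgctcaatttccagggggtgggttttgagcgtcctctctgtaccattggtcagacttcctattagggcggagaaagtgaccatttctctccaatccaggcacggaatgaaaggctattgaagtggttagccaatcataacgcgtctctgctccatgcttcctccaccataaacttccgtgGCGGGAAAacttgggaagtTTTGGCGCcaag
Mcm5: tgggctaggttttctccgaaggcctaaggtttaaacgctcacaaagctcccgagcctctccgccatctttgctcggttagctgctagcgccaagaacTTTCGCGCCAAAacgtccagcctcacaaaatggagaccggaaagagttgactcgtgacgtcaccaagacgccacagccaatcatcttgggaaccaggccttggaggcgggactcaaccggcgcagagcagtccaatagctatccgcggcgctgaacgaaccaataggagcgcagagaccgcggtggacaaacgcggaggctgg
Mcm6: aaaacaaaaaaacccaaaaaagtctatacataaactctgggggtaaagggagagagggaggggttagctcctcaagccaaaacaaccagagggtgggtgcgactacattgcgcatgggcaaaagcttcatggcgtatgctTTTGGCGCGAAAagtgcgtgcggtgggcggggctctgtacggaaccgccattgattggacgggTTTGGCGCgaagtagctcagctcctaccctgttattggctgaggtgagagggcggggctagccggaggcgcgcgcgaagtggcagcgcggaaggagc
Mcm7: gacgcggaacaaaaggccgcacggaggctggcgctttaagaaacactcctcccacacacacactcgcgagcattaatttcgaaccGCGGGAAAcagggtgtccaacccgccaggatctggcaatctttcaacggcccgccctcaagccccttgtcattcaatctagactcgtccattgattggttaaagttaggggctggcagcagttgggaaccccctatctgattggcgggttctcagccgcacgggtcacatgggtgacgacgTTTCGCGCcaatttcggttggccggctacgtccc
Cdc6: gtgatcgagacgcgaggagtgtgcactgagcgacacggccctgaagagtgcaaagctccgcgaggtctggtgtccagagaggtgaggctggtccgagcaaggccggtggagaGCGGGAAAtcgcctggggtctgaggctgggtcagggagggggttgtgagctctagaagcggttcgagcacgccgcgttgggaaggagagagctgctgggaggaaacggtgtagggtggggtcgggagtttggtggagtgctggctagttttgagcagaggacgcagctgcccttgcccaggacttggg
Mcm3, Mcm6 and Mcm7 each hold 2 separate matches, and in Mcm5 and Mcm6 a pair of matches on opposite strands overlaps to form 1 longer run. At least 1 match was found in 5 of the 9 member windows, against 744 of all 32851 windows (2.26%), and the windows of Mcm2, Mcm10 and Pcna hold none of these exact letters. The letters CCAAT, on either strand, were present in 8 of the 9 member windows and in 37.4% of all windows; the Cdc6 window has none. Such matches are letters and were not tested as binding sites.

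Libraries held between 17629795 and 25944701 counts. B2m averaged 748 ± 160.1 CPM (counts scaled to a common library total) in B2mKO tumours with aPD1 and 617 ± 112 CPM in B2mKO tumours with IgG1, against 4568 ± 728 and 3087 ± 910.1 CPM in WT tumours with the same antibodies (SD, n = 5 each). Jak1 averaged 72.4 ± 6.99 and 71.4 ± 4.98 CPM in Jak1KO tumours with aPD1 and IgG1, against 239 ± 6.08 and 232 ± 28.7 CPM in WT tumours. B2m was also below WT in Jak1KO tumours, at 1248 ± 309 and 1203 ± 92.8 CPM with aPD1 and IgG1 (edgeR adjusted p = 2.84e-08 and 5.92e-06), so its low level is not confined to the tumours labelled B2mKO. Of 8 colon epithelium markers, Cdx2 had no count in any of the 30 libraries and Cdh1 was the highest with a median of 5.08 CPM, so the epithelial identity of the line is hardly visible in these RNAs.

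Among the 30 libraries, B2mKO aPD1 replicate 2 and WT IgG1 replicate 3 stood apart from the rest. Relative to the other libraries of their groups, short genes (exon length up to 2385 bases) exceeded long genes (over 6407 bases) in median by 0.99 and 0.82 on the log2 scale, while in the other 28 libraries this difference lay between -0.21 and 0.28. Ratios between members were also unusual there. Per kb of exon, Pcna was 3.00 and 3.79 times as abundant as Mcm6 in these libraries, against 1.23 to 1.95 times in the others. Gins2 was 0.176 and 0.240 times as abundant as Mcm6, against 0.0547 to 0.108 times elsewhere. In log2 CPM, Mcm5, Mcm7, Pcna and Gins2 were above the median of their group's other 4 libraries in both, and the remaining 6 members were below it. The members did not follow exon length strictly: Mcm4 and Mcm3 were below that median although shorter than Mcm5 and Mcm7. Gins2 is left out of this comparison, because only 1339 of its 4097 exon bases are not shared with another gene. For the comparisons between genotypes, counts of called members and of all related genes together are therefore given with and without the 2 libraries. For single lists of related genes this is done only in part.

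Levels of different members can be compared only per length. Over all 30 libraries Pcna, the clamp that encircles DNA behind the helicase, was the most abundant at 106 ± 22.6 CPM per kb (SD, n = 30). The 6 ring subunits followed, led by Mcm6 at 61.6 ± 7.60 CPM per kb, then Mcm3 at 49.3 ± 11.2, Mcm4 at 45.1 ± 9.89, Mcm7 at 37.6 ± 7.79, Mcm5 at 33.6 ± 7.95 and Mcm2 at 21.9 ± 3.32. Although the ring holds 1 copy of each subunit, the highest of the 6 transcripts was 2.51 to 3.55 times the lowest within a library. Cdc6 (8.16 ± 1.88 CPM per kb), Mcm10 (5.67 ± 0.998) and Gins2 (5.37 ± 1.58) were the scarcest. Neighbours in this order were mostly kept library by library: Pcna exceeded Mcm6 in 30 of 30 libraries, Mcm6 exceeded Mcm3 in 29, Mcm4 exceeded Mcm7 in 28, and Mcm5, Mcm2, Cdc6 and Mcm10 followed one another in all 30. Mcm3 exceeded Mcm4 in 25, Mcm7 exceeded Mcm5 in 26 and Mcm10 exceeded Gins2 in 26, and the means of these pairs lay within 1 SD of each other. The Gins2 level is uncertain, because 2758 of its 4097 exon bases (67.3%) also belong to Gse1 on the opposite strand, and the counting did not use strand. If reads over the shared bases were left uncounted, only 1339 bases could yield counts. The Gins2 level per kb would then be too low, and its last place in the order would not be secure. Mcm7 shares 12.6% of its exon bases with Ap4m1, Cops6 and 2 microRNA genes, and the other 8 members share none. For Pcna, the annotated pseudogene copy Pcna-ps2 held 1 to 34 counts per library, against 3126 to 7503 for Pcna itself; reads that map to several places were not counted.

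The comparison of B2mKO with WT tumours asks how tumours from cells without MHC class I differ at harvest. With IgG1, 7 of the 10 members were lower in B2mKO tumours and none was higher, when 11.7% of all 15505 genes tested were lower and 9.4% higher by the same rule (edgeR quasi-likelihood test, adjusted p under 0.05). With aPD1, 5 of 10 were lower and none higher, against 10.5% and 9.86% of all genes. The members' median log2 fold change was -0.55 with IgG1 and -0.38 with aPD1, while the median over all genes was -0.00079 and -0.0028. All B2mKO libraries lay below all WT libraries for 4 members with IgG1, against 6.35% of all genes, and for 5 members with aPD1, against 6.66%. Mcm3, Mcm5, Mcm10 and Cdc6 fell under both antibodies, by 21.9% to 41.5%. Without the 2 libraries that stand apart, 10 of 10 members fell with IgG1 (13.5% of all genes were lower) and 7 of 10 with aPD1 (14.9%), with median log2 fold changes of -0.44 and -0.40.

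Among the ring subunits, Mcm5, which together with Mcm2 forms the gate through which DNA enters the ring, changed most with IgG1. It stood at 73.9, 74.9, 113, 83.1 and 132 CPM in B2mKO tumours, against 141, 146, 176, 129 and 188 CPM in WT tumours. Only the highest B2mKO library reached the lowest WT library. Its log2 fold change was -0.71 ± 0.14 (SE, edgeR adjusted p = 0.000635, n = 5 per group). With aPD1 the 5 B2mKO libraries, at 95.4, 113, 117, 70.4 and 103 CPM, all lay below the WT libraries at 134, 149, 151, 131 and 133 CPM, with a log2 fold change of -0.48 ± 0.14 (edgeR adjusted p = 0.0141; 0.0536 without B2mKO aPD1 replicate 4). Mcm3, the neighbour of Mcm5 in the ring, had 131, 127, 170.4, 101 and 140.4 CPM in B2mKO tumours with aPD1, against 199, 201, 219.7, 180.2 and 191 CPM in WT tumours. These groups did not overlap, and the log2 fold change was -0.56 ± 0.12 (edgeR adjusted p = 0.00111); with IgG1 it was -0.52 ± 0.12 (adjusted p = 0.00269) with overlapping groups.

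Mcm4, Mcm6 and Mcm7 form a subcomplex that unwinds DNA on its own in vitro. With IgG1, Mcm7 stood at 107, 103, 144, 111 and 145 CPM in B2mKO tumours, against 164, 162, 228, 148 and 207 CPM in WT tumours. All B2mKO libraries lay below all WT libraries, with a log2 fold change of -0.58 ± 0.13 (edgeR adjusted p = 0.00164). With aPD1 its value was -0.31 ± 0.13 (adjusted p = 0.0786), and without B2mKO aPD1 replicate 2, where it reached 176 CPM, it was -0.42 with an adjusted p of 0.0151. Mcm4 fell with aPD1 (-0.43 ± 0.12, edgeR adjusted p = 0.0119), where B2mKO libraries at 130.1, 103, 145, 96.3 and 129 CPM were all below WT libraries at 162, 149, 172, 168 and 162 CPM; with IgG1 it was -0.28 ± 0.12 (adjusted p = 0.101). Mcm6 had 263, 207, 286, 245 and 287 CPM in B2mKO tumours with aPD1 and 279.8, 224, 301, 239 and 318 CPM with IgG1. In WT tumours it had 293, 280.4, 335, 292 and 287 CPM with aPD1 and 329, 338, 214, 289 and 362 CPM with IgG1. These ranges overlapped, and Mcm6 did not pass the test in any comparison with all 30 libraries; the log2 fold changes of B2mKO against WT were -0.21 (95% interval -0.44 to 0.02) with aPD1 and -0.17 (-0.40 to 0.06) with IgG1. Mcm2, the subunit with a histone-binding tail, gave -0.30 (-0.56 to -0.05; edgeR adjusted p = 0.0845) and -0.20 (-0.45 to 0.06; adjusted p = 0.261). Without the 2 libraries that stand apart, Mcm2, Mcm4 and Mcm6 fell with IgG1, with log2 fold changes of -0.30, -0.33 and -0.27 (edgeR adjusted p = 0.0327, 0.0328 and 0.0206).

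Cdc6, an ATPase that works with the origin recognition complex to load the ring, was the member with the largest fall against WT tumours in B2mKO tumours under aPD1. It stood at 30.8, 27.3, 40.9, 22.0 and 30.7 CPM in B2mKO tumours, against 49.6, 49.7, 59.7, 51.9 and 48.7 CPM in WT tumours. The groups did not overlap (log2 fold change -0.77 ± 0.13, edgeR adjusted p = 0.000128). With IgG1 the B2mKO libraries, at 26.7, 29.0, 39.4, 27.0 and 41.5 CPM, again all lay below the WT libraries at 45.7, 52.6, 44.5, 47.9 and 56.8 CPM (-0.60 ± 0.13, adjusted p = 0.00208). Mcm10, which helps to switch on the loaded ring, averaged 34.7 ± 5.33 CPM in B2mKO tumours and 47.3 ± 2.48 CPM in WT tumours with aPD1 (SD, n = 5 each), a log2 fold change of -0.45 ± 0.11 (edgeR adjusted p = 0.00436). With IgG1 it was -0.36 ± 0.11 (adjusted p = 0.0224), a call that was lost when any 1 of 5 libraries was left out (WT IgG1 replicate 2 or 5, or B2mKO IgG1 replicate 1, 2 or 4; adjusted p = 0.0515 to 0.0812).

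Gins2, a subunit of the GINS complex that turns the ring into an active helicase, and Pcna depended most on the libraries that stand apart. With IgG1, Gins2 had 13.4, 13.0, 18.0, 14.5 and 19.2 CPM in B2mKO tumours, against 22.9, 21.4, 45.1, 19.7 and 27.3 CPM in WT tumours. The groups did not overlap, and the highest WT value belongs to WT IgG1 replicate 3. The log2 fold change was -0.80 ± 0.20 (edgeR adjusted p = 0.00465) with that library and -0.55 (adjusted p = 0.0265) without it. With aPD1 Gins2 had 16.5, 32.0, 20.4, 12.7 and 18.7 CPM in B2mKO tumours and 18.5, 19.9, 22.0, 20.3 and 18.2 CPM in WT tumours. Here the B2mKO libraries surrounded the WT ones, with a log2 fold change of 0.02 (95% interval -0.38 to 0.42) that turned to -0.21 without B2mKO aPD1 replicate 2, the library at 32.0 CPM, and passed the test in neither case. Pcna had 179, 169, 227, 187 and 219 CPM in B2mKO tumours with IgG1, against 262, 260.1, 417, 229.9 and 296 CPM in WT tumours. No library overlapped (-0.58 ± 0.15, edgeR adjusted p = 0.00694), although the highest B2mKO and the lowest WT value were close. With aPD1 Pcna had 208, 320.1, 208, 158 and 183 CPM in B2mKO tumours, against 254, 273, 334, 252 and 249 CPM in WT tumours, and 1 B2mKO library at 320.1 CPM exceeded 4 of the 5 WT libraries. The log2 fold change was -0.34 ± 0.15 (adjusted p = 0.112) with that library and -0.53 (adjusted p = 0.00504) without it.

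**Figure D1:**
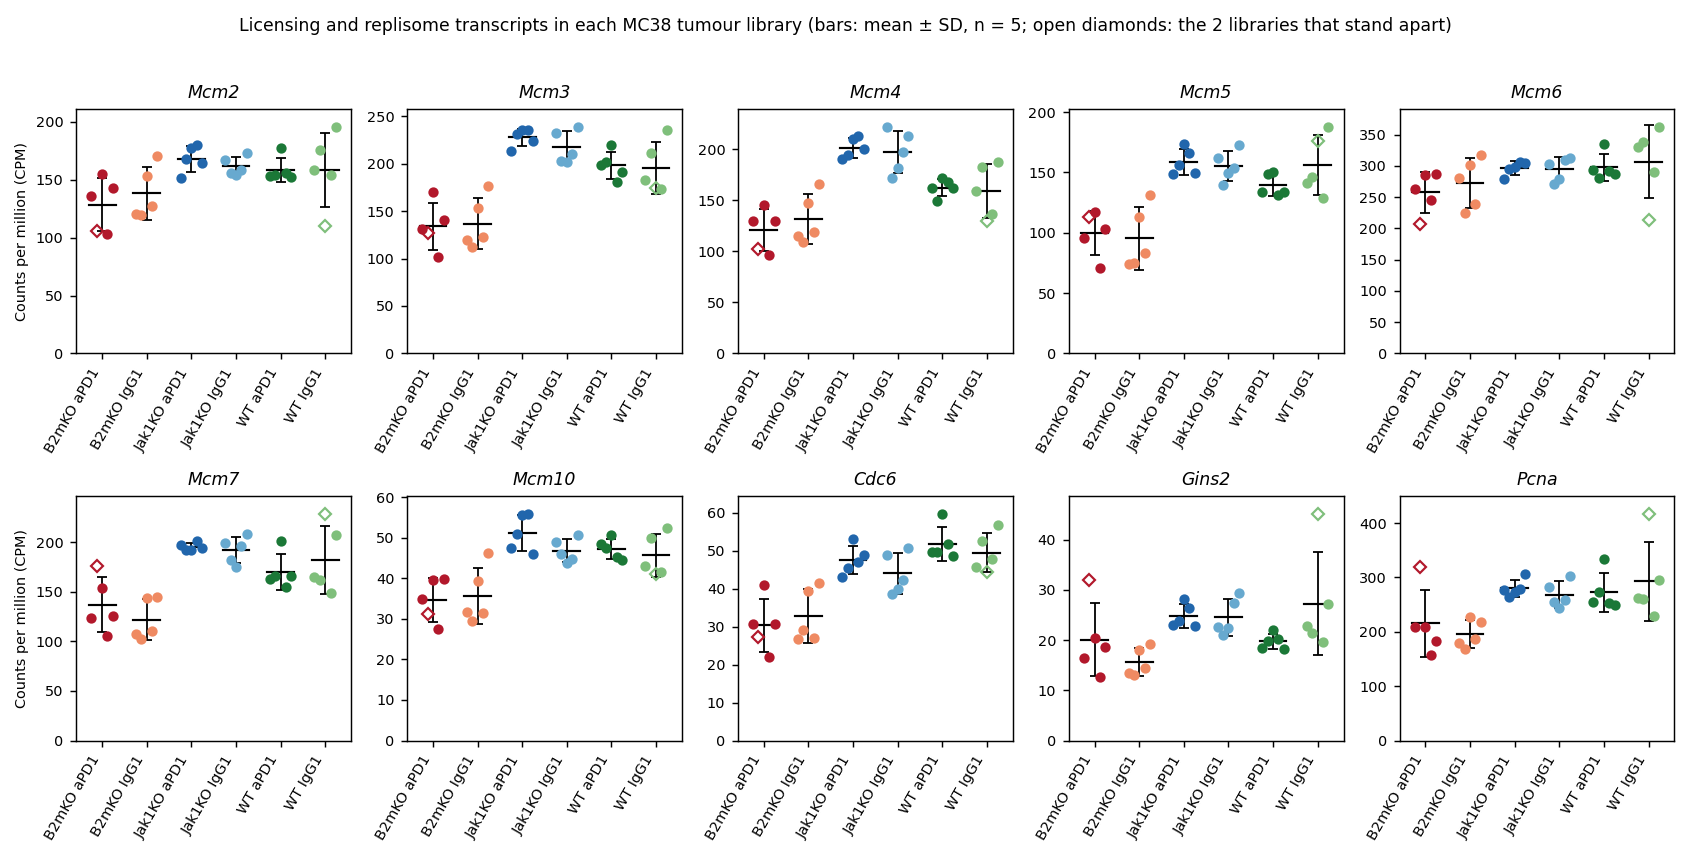
Each point is 1 library's CPM for the member named above the panel, with groups along the horizontal axis, black lines for the group mean and error bars for the SD (n = 5); open diamonds mark the 2 libraries that stand apart. The B2mKO groups lie lowest for Cdc6, at 22.0 to 41.5 CPM, while the Mcm6 groups overlap.

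Setting B2mKO against Jak1KO tumours compares 2 mutant lines with each other. With IgG1, 8 of 10 members were lower in B2mKO tumours and none was higher, against 14% of all genes lower and 14.5% higher. With aPD1, 7 of 10 were lower and none higher, against 13.6% and 15.1%. The groups did not overlap for 6 members under each antibody, when 15% of all genes were lower without overlap with IgG1 and 10.6% with aPD1. The median log2 fold changes of the members were -0.52 and -0.54. Mcm3, Mcm4, Mcm5, Mcm7, Mcm10 and Cdc6 fell under both antibodies. These comparisons use the same B2mKO libraries as those with WT, so the 2 sets of falls are not independent.

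With aPD1, Mcm4 had 130.1, 103, 145, 96.3 and 129 CPM in B2mKO tumours, against 191, 194, 209.6, 213 and 199.98 CPM in Jak1KO tumours. Every Jak1KO library exceeded every B2mKO library, and the log2 fold change was -0.74 ± 0.12 (SE, edgeR adjusted p = 3.36e-05, n = 5 per group). For Mcm3 it was -0.76 ± 0.12 with aPD1 (adjusted p = 1.79e-05) and -0.67 ± 0.12 with IgG1 (adjusted p = 9.15e-05), without overlap under either antibody. Mcm5 gave -0.67 ± 0.14 and -0.70 ± 0.14, and Mcm7 gave -0.51 ± 0.13 and -0.66 ± 0.13, with aPD1 and IgG1 in that order. Mcm7 was very even in Jak1KO tumours with aPD1, at 192 to 202 CPM, while the B2mKO libraries ranged from 106 to 176 CPM. Mcm2 fell with aPD1 (-0.39 ± 0.12, edgeR adjusted p = 0.0190), a call that was lost without B2mKO aPD1 replicate 2 or 4 (adjusted p = 0.0523 and 0.0674), and gave -0.23 ± 0.12 with IgG1 (adjusted p = 0.186). Mcm6 gave -0.20 (95% interval -0.43 to 0.03) and -0.11 (-0.35 to 0.12).

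Cdc6 was lower than in Jak1KO tumours by 0.65 ± 0.13 on the log2 scale with aPD1 (edgeR adjusted p = 0.000544) and by 0.43 ± 0.13 with IgG1 (adjusted p = 0.0162). Pcna fell with IgG1 (-0.45 ± 0.15, adjusted p = 0.0234) and gave -0.38 ± 0.15 with aPD1 (adjusted p = 0.0591). The IgG1 calls of Cdc6 and Pcna were lost without some single libraries, B2mKO IgG1 replicates 1 and 4 and Jak1KO IgG1 replicate 5 for both and also B2mKO IgG1 replicate 2 for Pcna (adjusted p = 0.0506 to 0.0695). Gins2 had 13.0 to 19.2 CPM in B2mKO tumours with IgG1 and 20.9 to 29.5 CPM in Jak1KO tumours, without overlap (-0.65 ± 0.20, edgeR adjusted p = 0.0132). With aPD1 it gave -0.31 ± 0.20 (adjusted p = 0.252). Leaving out the 2 libraries that stand apart, Pcna and Gins2 also fell with aPD1, by 0.53 and 0.51 on the log2 scale (adjusted p = 0.00015 and 0.00326), and 8 members with IgG1 and 9 with aPD1 were lower, against 19.4% and 18.1% of all genes.

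In Jak1KO against WT tumours, no member passed the test with IgG1 or with aPD1, while 18.3% and 20.8% of all genes did in either direction; 1 member in each, Mcm4, had an unadjusted p under 0.05, and DESeq2 called none. Mcm4 stood at 191, 194, 209.6, 213 and 199.98 CPM in Jak1KO tumours with aPD1, against 162, 149, 172, 168 and 162 CPM in WT tumours. Every Jak1KO library was above every WT library. The log2 fold change was 0.31 ± 0.12 (SE, edgeR adjusted p = 0.0684, n = 5 per group), and 0.31 ± 0.12 with IgG1 (adjusted p = 0.0733) with overlapping groups. Gins2 also showed no overlap with aPD1, at 22.8 to 28.2 CPM in Jak1KO tumours and 18.2 to 22.0 CPM in WT tumours (0.33, 95% interval -0.07 to 0.73; adjusted p = 0.256). Groups did not overlap, in the higher direction, for 10.4% of all genes. The members' log2 fold changes spanned -0.13 to 0.33 with aPD1 and -0.17 to 0.31 with IgG1. When only the 10 aPD1 libraries of Jak1KO and WT tumours were fitted, whose replicates lay close together, Mcm3, Mcm4, Mcm5, Mcm7 and Gins2 rose (0.18 to 0.32, edgeR adjusted p = 0.00172 to 0.0484), and 15.2% of all genes were higher in that fit, against 8.4% in the fit of all 30 libraries. In the fit of 28 libraries, Mcm4 rose with aPD1 (0.29, edgeR adjusted p = 0.0406; 14.5% of all genes were higher) and no member was called with IgG1.

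The comparison of the 2 antibodies asks what PD-1 blockade did within each genotype. aPD1 against IgG1 gave no called member in B2mKO, Jak1KO or WT tumours (edgeR adjusted p under 0.05), and DESeq2 called none either. Over all genes 4.38% passed this test in WT tumours, and no gene did in B2mKO or Jak1KO tumours, where 512 and 172 genes had an unadjusted p under 0.05. The members' log2 fold changes ran from -0.12 to 0.36 in B2mKO tumours, from 0.01 to 0.13 in Jak1KO tumours and from -0.46 to 0.07 in WT tumours. At either end outside Jak1KO tumours stood Gins2, with 0.36 (95% interval -0.05 to 0.77) in B2mKO and -0.46 (-0.87 to -0.06, unadjusted p = 0.0258, adjusted p = 0.206) in WT tumours, the 1 member with an unadjusted p under 0.05. Both values contain a library that stands apart, and without these they were 0.13 and -0.21. Leaving Gins2 aside, the WT intervals of the members reached from -0.45 (Mcm5) to 0.34 (Cdc6). When the aPD1 effect was set against that in WT tumours, no member passed for B2mKO or for Jak1KO tumours with edgeR or DESeq2, and edgeR called 0.0967% of all genes for B2mKO and none for Jak1KO tumours, where 1279 genes had an unadjusted p under 0.05. Gins2 was again the exception by unadjusted p for B2mKO, with a difference of 0.82 ± 0.28 (unadjusted p = 0.00645, adjusted p = 0.219), which was 0.34 ± 0.19 (adjusted p = 0.574) without the 2 libraries.

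**Figure D2:**
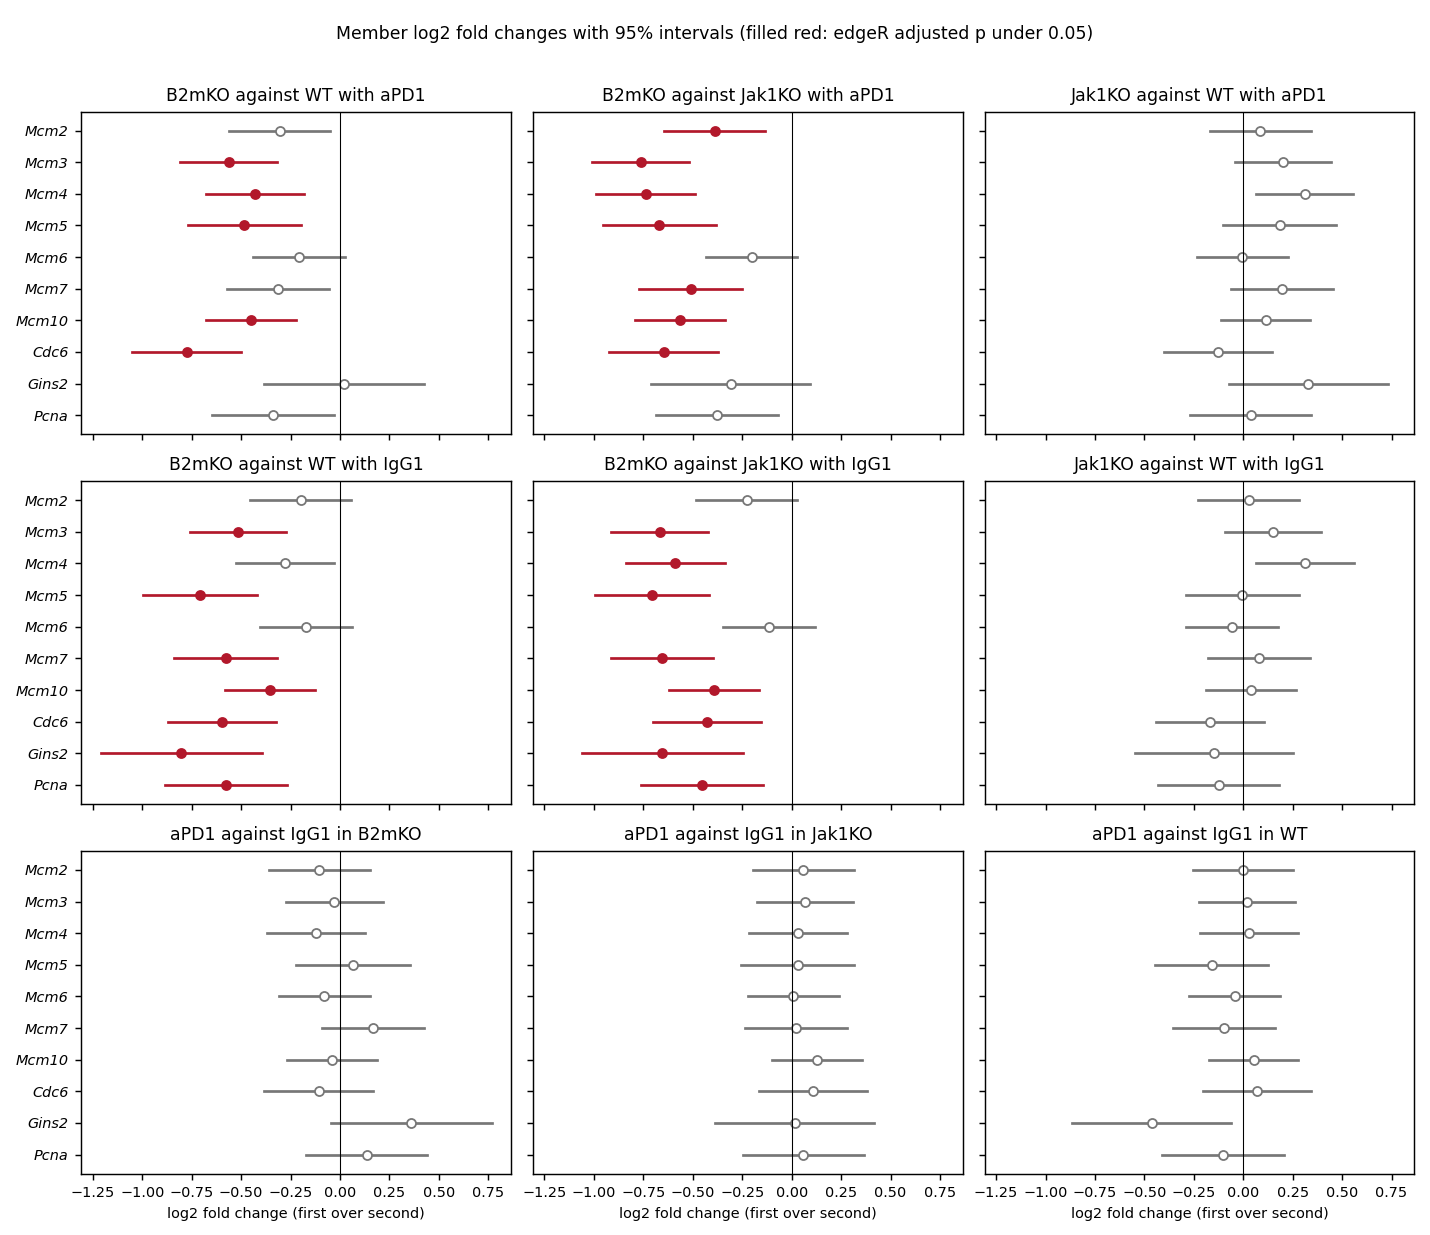
Each point is a member's log2 fold change, first group over second, with its 95% interval (n = 5 per group); filled red points passed edgeR's adjusted p of 0.05. Red points fill the 4 panels with B2mKO tumours, where 5 to 8 of 10 members passed, and no point is red in the Jak1KO against WT panels or in the 3 antibody panels.

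The share of each subunit in the ring transcripts was also compared. Summed per kb, Mcm2 to Mcm7 came to 199 ± 26.0 CPM per kb in B2mKO tumours with aPD1 and 203 ± 35.9 with IgG1, to 288 ± 10.8 and 282 ± 20.6 in Jak1KO tumours, and to 258 ± 16.2 and 265 ± 32.6 in WT tumours (SD, n = 5 each). With aPD1 the B2mKO libraries, at 163 to 234 CPM per kb, did not overlap the WT libraries at 248 to 287, whereas with IgG1 the ranges of 168 to 252 and 234 to 315 did. Mcm6 made up 23.4% to 32.3% of the sum in B2mKO tumours with aPD1 and 27.1% to 32.6% with IgG1, against 21.5% to 22.9% and 21.8% to 23.4% in Jak1KO tumours. In WT tumours it made up 23.8% to 25.3% with aPD1 and 19.1% to 27.3% with IgG1. The lowest B2mKO and WT values belong to the 2 libraries that stand apart; without them Mcm6 held 26.2% to 32.3% of the sum in B2mKO tumours with aPD1 and 24.7% to 27.3% in WT tumours with IgG1. Mcm3 showed the opposite tilt, with mean shares of 17.9% in B2mKO tumours under both antibodies, 21.0% and 20.6% in Jak1KO tumours, and 20.5% and 19.6% in WT tumours with aPD1 and IgG1 in that order. Mcm2 fell further than Mcm6 in B2mKO tumours but less than the other ring subunits. It made up 9.25% and 9.83% in B2mKO tumours, 8.38% and 8.27% in Jak1KO tumours, and 8.84% and 8.57% in WT tumours, in the same order. Without the 2 libraries, the ring sum was 201 ± 29.5 CPM per kb in B2mKO tumours with aPD1 and 271 ± 33.98 in WT tumours with IgG1 (SD, n = 4 each). These shares and sums are given as descriptions, with no test.

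Most fibroblast markers were higher in B2mKO than in WT tumours, where members were lower, while endothelial markers were called only with aPD1. In bulk tissue, fewer cells of a type and less RNA per cell cannot be told apart. The summed level of 8 fibroblast markers was 10163 to 23362 CPM in B2mKO tumours with aPD1 and 14119 to 31897 CPM with IgG1. In Jak1KO tumours it was 8933 to 10283 and 7620 to 10007 CPM, and in WT tumours 4952 to 9917 and 7098 to 13419 CPM. A single collagen gene, Col3a1, made up 64.2% to 82.97% of this sum; the other 7 markers came to 3369 to 5011 CPM in B2mKO tumours with aPD1 and 2862 to 5990 CPM with IgG1, against 1369 to 2237 and 2104 to 2768 CPM in WT tumours. Of the 8 markers, 6 were higher in B2mKO than in WT tumours under each antibody, and 4 with aPD1 and 5 with IgG1 were higher than in Jak1KO tumours. None was at 0. By the same rule, 9.86% of all genes with aPD1 and 9.4% with IgG1 were higher than in WT tumours. Against Jak1KO tumours these shares were 15.1% and 14.5%. Within each of the 6 groups the library with the highest marker sum had the lowest ring sum, so this was not particular to B2mKO tumours. In WT tumours it was replicate 4 with aPD1 (9917 CPM and 248 CPM per kb) and replicate 4 with IgG1 (13419 and 234). In Jak1KO tumours it was replicate 1 with aPD1 (10283 and 274) and replicate 2 with IgG1 (10007 and 259). In B2mKO tumours it was replicate 4 with aPD1, at 23362 CPM and 163 CPM per kb, and replicate 2 with IgG1, at 31897 CPM and 168 CPM per kb. The B2mKO IgG1 library with the least of these markers, replicate 5 at 14119 CPM, had the highest ring sum of the group, at 252 CPM per kb, which lies inside the WT range. The aPD1 library with the least, replicate 2 at 10163 CPM, went the other way, with the second lowest ring sum of its group, at 190.03 CPM per kb; it is one of the libraries that stand apart. Of 6 endothelial markers, 5 rose in B2mKO against WT tumours with aPD1 (summed 90.8 to 194 CPM, against 78.9 to 128 CPM) and none was called with IgG1. Against Jak1KO tumours 4 rose with aPD1 and none was called with IgG1. Of 4 NK cell markers, which summed to 3.90 to 18.1 CPM in B2mKO and 4.75 to 9.28 CPM in WT tumours, 3 were higher with IgG1 and 1 with aPD1. Pan-leukocyte markers summed to 444 to 569 CPM in B2mKO tumours with aPD1 and 336 to 564 CPM with IgG1, against 374 to 1026 and 202 to 528 CPM in WT tumours, and none of the 3 differed in the comparisons of B2mKO with WT tumours. The part that these cells have in the members' levels was not tested.

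**Figure D3:**
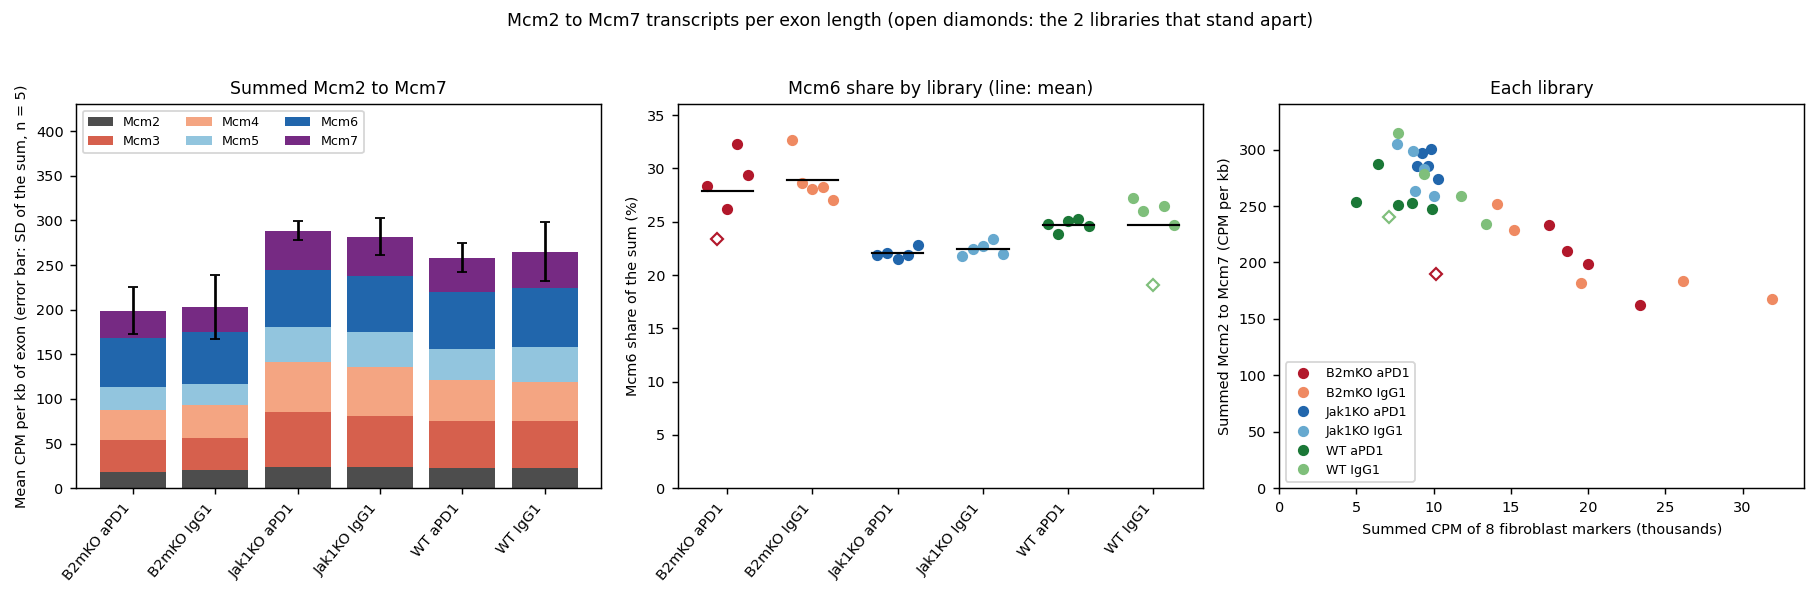
Left, the mean level of each ring transcript stacked per group (CPM per kb, error bar SD of the sum, n = 5); middle, the Mcm6 share of that sum in each library (%, line for the mean); right, each library's ring sum against its summed CPM of 8 fibroblast markers, coloured by group, with open diamonds for the 2 libraries that stand apart. B2mKO libraries have 10163 to 31897 CPM of fibroblast markers and ring sums of 163 to 252 CPM per kb.

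Related genes were taken from 8 lists with 123 genes, of which 122 were tested. Of the lists, 6 hold 74 tested genes of DNA replication, and the others hold 30 control genes of S phase entry and 18 mitotic genes. In B2mKO against WT tumours, 57 of the 122 were lower and 3 higher with IgG1 and 32 lower and 3 higher with aPD1, with list medians of -0.31 and -0.24 on the log2 scale. Against Jak1KO tumours 55 were lower and 8 higher with IgG1, and 49 lower and 8 higher with aPD1. Of the 74 replication genes alone, 40 and 19 were lower in B2mKO against WT tumours with IgG1 and aPD1, and 39 and 34 against Jak1KO tumours. In Jak1KO against WT tumours, 10 of the 122 were lower and 3 higher with IgG1, when 11% and 7.23% of all genes were, and 10 lower and 5 higher with aPD1, when 12.4% and 8.4% were; these shares of the lists are no larger than those of all genes. Without the 2 libraries that stand apart, 57 genes with IgG1 and 52 with aPD1 were lower in B2mKO against WT tumours, and 3 and 4 were higher. Of all genes in that fit, 13.5% and 14.9% were lower and 13.2% and 14.8% higher. Against Jak1KO tumours 71 and 73 were lower and 10 under each antibody were higher. Here 19.4% and 18.1% of all genes were lower and 21.8% and 20.4% higher. In Jak1KO against WT tumours 13 were lower and 4 higher with IgG1, when 13.4% and 8.89% of all genes were. With aPD1 17 were lower and 18 higher, when 18.9% and 14.5% were. These Jak1KO shares of the lists were near or below those of all genes.

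The partners of the members in licensing and activation were among them. Of 11 tested origin recognition and licensing factors, 5 were lower and 1 higher in B2mKO against WT tumours with IgG1. Cdt1, which works with Cdc6 to load the ring, averaged 44.2 ± 6.06 CPM in B2mKO and 71.8 ± 17.6 CPM in WT tumours with IgG1 (SD, n = 5 each; log2 fold change -0.70 ± 0.15 SE, edgeR adjusted p = 0.00138), and it fell by 0.78 ± 0.15 with aPD1 (adjusted p = 0.000417). Orc6, the smallest origin recognition subunit, fell by 0.76 ± 0.17 with IgG1 (adjusted p = 0.00266). The relatives of the ring subunits that work in meiotic and repair recombination went separate ways: Mcm8 fell by 0.54 ± 0.12 (adjusted p = 0.00124) while Mcm9 rose by 0.36 ± 0.08 (adjusted p = 0.00229). Of 15 factors that assemble and fire the helicase, 8 were lower and none higher under each antibody. Cdc45, the third component of the active helicase, averaged 50.5 ± 7.86 CPM in B2mKO and 72.9 ± 8.43 CPM in WT tumours with aPD1, a log2 fold change of -0.53 ± 0.09 (edgeR adjusted p = 0.000189). The origin firing factors Mtbp and Topbp1 fell by 0.72 ± 0.10 and 0.54 ± 0.09 (adjusted p = 1.24e-05 and 7.07e-05). Gins3, a partner of Gins2, fell with IgG1 in B2mKO tumours (-0.61 ± 0.10, adjusted p = 8.59e-05) and also in Jak1KO against WT tumours (-0.67 ± 0.10, adjusted p = 2e-05).

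At the fork itself, 9 of 16 clamp loading and Okazaki fragment genes were lower in B2mKO against WT tumours with IgG1. So were 9 of 15 polymerase and RPA genes, when 11.7% of all genes were lower. With aPD1, 2 and 1 genes of these lists were lower, near the all-gene share of 10.5%. Without the 2 libraries that stand apart, these counts were 7 and 9 with IgG1 and 5 and 5 with aPD1, when 13.5% and 14.9% of all genes were lower. No gene of these 2 lists was called when the aPD1 effect in B2mKO was set against that in WT tumours. Dscc1, of an alternative clamp loader, fell by 0.84 ± 0.17 with IgG1 (edgeR adjusted p = 0.000724), and Pola2, of the priming polymerase, fell by 0.53 ± 0.11 with IgG1 (adjusted p = 0.00112) and 0.62 ± 0.11 with aPD1 (adjusted p = 0.000177). Of 9 genes of deoxynucleotide supply, 6 with IgG1 and 2 with aPD1 were lower, and 6 and 6 without the 2 libraries; Rrm2, the S phase subunit of ribonucleotide reductase, averaged 195 ± 45.4 CPM in B2mKO and 308 ± 40.8 CPM in WT tumours with IgG1 (adjusted p = 0.00402). Samhd1, which degrades deoxynucleotides and is interferon-inducible, was the 1 gene of the 122 that rose with aPD1 in WT tumours, by 1.15 ± 0.19 (adjusted p = 0.00117). The 2 genes of this list that were lower in B2mKO against WT tumours with aPD1 were Rrm2 and Samhd1. For Samhd1 the log2 fold change was -0.91 ± 0.19 (edgeR adjusted p = 0.00078). Of 8 genes of replication-coupled chromatin assembly, 3 were lower under each antibody in B2mKO against WT tumours. Without the 2 libraries that stand apart, 5 were. Hells, a chromatin remodeller, fell by 0.62 ± 0.12 with IgG1 and all 30 libraries (edgeR adjusted p = 0.000367). Of 18 mitotic genes, 10 with IgG1 and 6 with aPD1 were lower and none higher in B2mKO against WT tumours; the topoisomerase gene Top2a fell by 0.58 ± 0.10 and 0.66 ± 0.10 (adjusted p = 7.51e-05 and 1.14e-05). Control genes of S phase entry were mixed. Of 30, 7 were lower under each antibody, when 11.7% of all genes were with IgG1 and 10.5% with aPD1. Higher were 2 with IgG1 and 3 with aPD1, when 9.4% and 9.86% of all genes were. In Jak1KO against WT tumours 4 of the 30 with IgG1 and 6 with aPD1 were also lower. Without the 2 libraries that stand apart, 6 and 10 were lower in B2mKO and 7 and 10 in Jak1KO against WT tumours. In B2mKO against WT tumours with aPD1 the activator E2f1 fell by 0.42 ± 0.09 (edgeR adjusted p = 0.000672) and the CDK inhibitor Cdkn2b rose by 1.10 ± 0.16 (adjusted p = 8.81e-06). With IgG1 Myc fell by 0.69 ± 0.14 (adjusted p = 0.00111) and the CDK inhibitor Cdkn2a rose by 0.72 ± 0.14 (adjusted p = 0.000483).

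**Figure D4:**
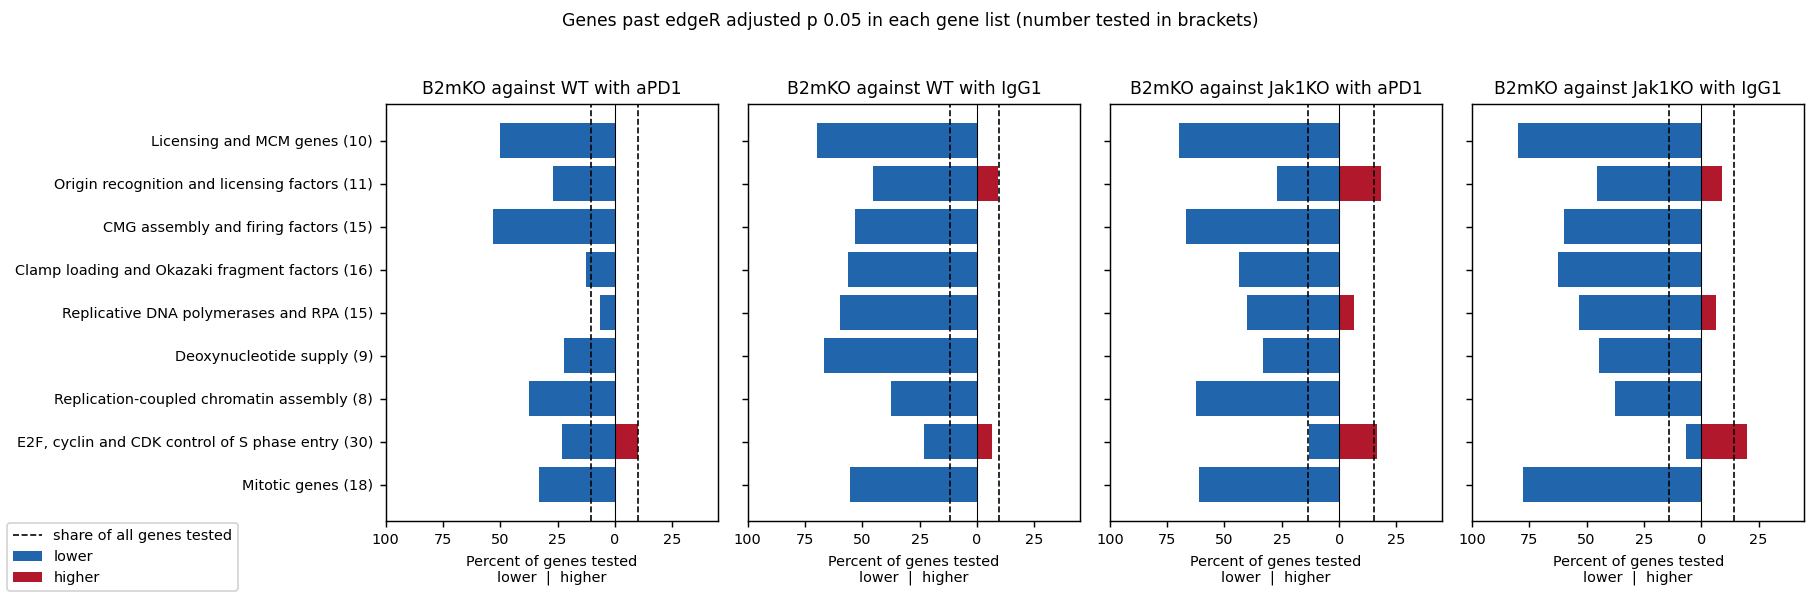
Bars give the percent of each list's tested genes that were lower (blue, left) or higher (red, right) at edgeR's adjusted p of 0.05 in 4 comparisons; dashed lines mark the shares of all 15505 genes. The 10 licensing and MCM genes form the top bar, with 5 and 7 lower against WT and 7 and 8 lower against Jak1KO tumours with aPD1 and IgG1 in that order.

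The members varied together within groups, with exceptions. After the group means were subtracted from log2 CPM over the 30 libraries, Mcm3 followed the mean of the other members most closely (r = 0.95), then Mcm5 (0.91), Cdc6 (0.89), Mcm10 (0.87) and Mcm4 (0.82). Mcm7 and Mcm2 reached 0.70 and 0.69, and Mcm6 (0.50), Gins2 (0.47) and Pcna (0.43) were lowest. The closest pair was Mcm3 and Mcm10 (0.93) and the least alike was Mcm6 and Gins2 (-0.23). The 2 libraries that stand apart enter these values. Outside the members, the genes most like their mean were Rrm1 (0.97), the large subunit of ribonucleotide reductase, Pa2g4 and Nasp (both 0.93), Lig1 (0.92), which seals Okazaki fragments, and Psmd1, Eftud2, Hells and Pola2 (0.91 each). Without subtraction of the group means these 8 values were between 0.78 and 0.97. All are descriptions across libraries that share groups and scaling.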

How the data were processed

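Tumour RNA was sequenced as paired ends in 30 libraries. The authors deposited read counts per gene, made per the file headers by featureCounts 2.0.0 against gene models of Ensembl release 99 for GRCm38. The counting used exons, no strand option and no pair option. The submitters' processing notes also name STAR 2.5.2a, FastQC 0.11.2, edgeR 3.24.3, Cufflinks 2.2.1 and the build mm10. The 30 per-sample tables equalled the series table; the header of WT aPD1 replicate 2 names an alignment file of another name than its sample, and its counts were used as deposited.

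The deposited counts were tested in R 4.3.3 with edgeR 4.0.16 (quasi-likelihood test, 1 fit over 6 groups of 5 libraries, TMM factors 0.94 to 1.04), after the filterByExpr filter (minimum count 10, total 15) left 15505 of 55471 genes. Adjusted p-values are Benjamini-Hochberg over all genes tested, with a threshold of 0.05. The test was also run on data simulated for B2mKO against WT with IgG1, and no result given here rests on that run. CPM use TMM-scaled library sizes, and "per kb" divides by all annotated exon bases of a gene, bases shared with other genes included. Symbols were found for all but 327 identifiers, which held 0.047% of counts. Replicates differed by more than sampling noise in each of 60 pairs within groups (chi-square per degree of freedom 6.492 to 205.8). Intervals are 95%.

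The members and the lists of related genes and markers were chosen with earlier results of these data known. All members are named; from each related list, up to 4 genes with the smallest p among those called could be named per comparison, and the 8 genes most correlated with the members. Alternatives were DESeq2 1.42.0 (size factors, Wald test), no filter, a replicate block, the compared groups alone, each library left out, and both libraries that stand apart left out. Promoter windows are RefSeq's.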

Additional observations from a re-analysis of the deposited data

Results flagged for a closer look

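WT aPD1 replicate 3 lay far above the other 4 libraries of its group for 5 members: Mcm2 at 177 CPM, Mcm6 at 335 CPM, Mcm7 at 201 CPM, Pcna at 334 CPM and Cdc6 at 59.7 CPM. The gap to the nearest library was over 0.71 of the group's range in each case. Of 60 sets of 5 libraries examined (10 members in 6 groups), these were the 5 that stood out, and chance alone flags about 1 in 20. The 5 come from 1 library, so they are not separate events. In that library short genes exceeded long genes by 0.28 on the log2 scale, the highest value among the 28 libraries that do not stand apart.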

How the results depend on the processing

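Among the antibody comparisons, edgeR called 0 genes in B2mKO and in Jak1KO tumours with every library left out in turn; the others moved. For aPD1 in WT tumours the 679 genes became 448 without the filter and 55 with the compared groups alone, and 230 to 1107 when a library was left out (lowest without WT aPD1 replicate 2, highest without WT aPD1 replicate 4). For the difference of the aPD1 effect between B2mKO and WT tumours, 15 genes became 6 without the filter, 121 with DESeq2, 9 with the compared groups alone, 1 without the 2 libraries that stand apart and 0 to 158 with a library left out; for Jak1KO against WT, 0 became 51 with DESeq2 and 0 to 128. With the compared groups alone, calls numbered 1444 rather than 3270 in B2mKO against WT with IgG1, 1641 rather than 2833 in Jak1KO against WT with IgG1 and 1780 rather than 3158 in B2mKO against WT with aPD1, but 4748 rather than 3221 in Jak1KO against WT with aPD1 and 6264 rather than 4419 in B2mKO against Jak1KO with IgG1. In Jak1KO against WT with aPD1, calls numbered 5236 rather than 3221 without the 2 libraries, and called members were 5 with the compared groups alone and 1 without the 2 libraries, rather than 0; with IgG1 they were 0 to 1 with a library left out. The number of called members with a library left out was 6 to 8 (IgG1) and 4 to 7 (aPD1) in B2mKO against WT, and 6 to 8 under both antibodies in B2mKO against Jak1KO. Gins2 in B2mKO against WT with aPD1 turned sign, to -0.0011 without the filter, -0.20 without the 2 libraries, and -0.0030, -0.0095 and -0.21 without WT aPD1 replicate 1, WT aPD1 replicate 5 and B2mKO aPD1 replicate 2 (range -0.21 to 0.15). Mcm10 in B2mKO against WT with IgG1 lost its call without the filter (adjusted p = 0.0649) and with the compared groups alone (0.129), and Mcm2 in B2mKO against Jak1KO with aPD1 with the compared groups alone (0.0538), by edgeR; the causes were not tested. Replicate numbers were not taken to pair libraries, since in no comparison did all 5 pairs correlate over 0.1, although 4 of 5 did for aPD1 against IgG1 in Jak1KO (0.0944 to 0.355) and for B2mKO against WT with IgG1 (-0.185 to 0.334); with the replicate block, 8 rather than 7 members were called in B2mKO against Jak1KO with aPD1 (Pcna, edgeR adjusted p = 0.0486), and 564 rather than 679 genes for aPD1 in WT tumours. DESeq2's size factors shifted the median of all genes by at most 0.0138 in size. At this depth the rarest member, Gins2, had 235 to 812 counts per library, so the spread between libraries, not counting, limits the members.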
